A study of Stylosanthes guianensis with 6 samples.

Results

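The 8 unigenes described here are the heat shock and chaperone homologues that the study named in its gene interaction network. That network covers phosphorus-responsive root genes of stylo (Stylosanthes guianensis, a tropical forage legume). A unigene is an assembled transcript cluster, since no genome was used. The 8 were taken by identifier from 173014 unigenes listed in the files, of which 62040 had enough reads to be tested. The network was built from unigenes that already differed between the treatments in these 6 libraries. Levels and treatment differences of the 8 are therefore given as descriptions. Whether each passed the thresholds of the fit over all unigenes is stated as part of that description, with no p-value, and supports nothing.

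Heat shock proteins of the 70 kDa class (HSP70) bind unfolded stretches of other proteins and release them in a cycle driven by ATP. DnaJ proteins, also called J-proteins or HSP40, bring clients to HSP70 and speed up its ATP hydrolysis, and HSP90 proteins act later, on nearly folded clients such as kinases and receptors. Many of these proteins, the cognate forms among them, are made without heat, while heat stress transcription factors (HSFs) switch on the inducible ones and small heat shock proteins hold unfolded proteins in solution.

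All plants were of cultivar RY2. The LP libraries came from roots grown for 21 d in nutrient solution without KH2PO4 and the CK libraries, the study's high-P control, from roots of the same age with 250 µM KH2PO4, with 3 libraries per group. These doses are the study's own, and the phosphorus field of the labels gives them the other way round (0 µM for CK and 250 µM for LP), so the groups rest on the titles and the direction on the study's methods. According to the methods a replicate was a hydroponic box with several seedlings. The protocol text of the labels speaks of leaves, whereas the tissue field says root. Of 12 unigenes that the study listed for root growth, 12 had reads and 9 had reads in every library, but the list was chosen on the same contrast and no leaf list was at hand, so the tissue was not checked further.

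The LP libraries held 20643446 to 21784888 estimated read counts and the CK libraries 15586353 to 17821019. Spearman correlations across tested unigenes were 0.892 to 0.915 between libraries of the same group and 0.785 to 0.814 between groups. By this measure each library lay nearer to those of its own group than to the other group. Over all tested unigenes the median log2 fold change of LP against CK was 0.03.

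Levels are given as CPM, read counts relative to the library total scaled with TMM factors, for comparing libraries, and as FPKM, which also divides by length, for comparing unigenes. A unigene was called when its adjusted p in edgeR's quasi-likelihood test was under 0.05 and its log2 fold change was at least 1 in either direction. Of all tested unigenes, 13.2% were called, 6.09% higher under LP and 7.10% lower. Of the 8 homologues, all had enough reads to be tested. There were 3 called higher under LP, 4 called lower and 1 not called. LP and CK libraries did not overlap in CPM for any of the 8, against 42.4% of the tested unigenes. The same contrast chose the 8, so nothing is read from either count. The median log2 fold change over the 8 was -1.08.

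**Figure D1:**
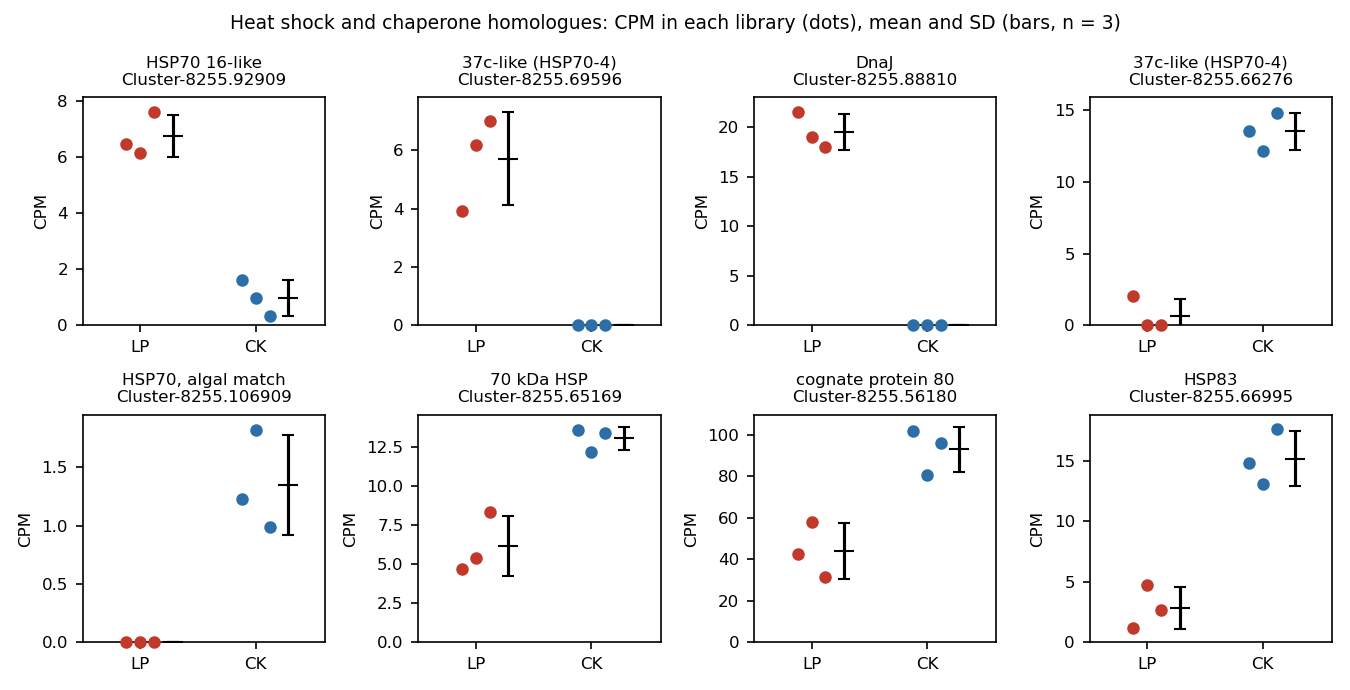
TMM-scaled CPM (linear axes from 0, a scale of its own in each panel) of the 8 heat shock and chaperone homologues in each LP (red) and CK (blue) library, with group means and SDs. Cluster-8255.92909, Cluster-8255.69596 and Cluster-8255.88810 lie higher in all LP libraries, the other 5 lie higher in all CK libraries, and Cluster-8255.66276 has a single LP library above 0. Its SD bar is cut at 0.

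The only J-protein of the set, Cluster-8255.88810, is described as a chaperone protein dnaJ by its match to Medicago truncatula. Its other matches are to SEC63 and to Arabidopsis ERDJ2A, J-proteins of the endoplasmic reticulum membrane that work at the channel through which new proteins enter. Its level was 21.5, 19.0 and 18.0 CPM in the LP libraries (460, 393 and 366 reads) and 0 in all 3 CK libraries. It was thus detected only under LP, at similar levels in the 3 libraries. As in all such whole-root values, a change in the cells that make the RNA and a change in RNA per cell cannot be told apart. Against a floor of 3 reads over the CK group, the LP level was at least 322-fold higher. Its pooled SD of log2 CPM within groups was 0.09, smaller than that of all but 4.4% of tested unigenes, although the CK zeros add no spread to it.

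Among the HSP70 homologues, Cluster-8255.92909 matched isoform X1 of a chickpea HSP70 named 16-like. In Arabidopsis, HSP70-16 belongs to the HSP110-type branch of the family, whose members help HSP70 exchange its nucleotide. It had 6.46, 6.15 and 7.59 CPM under LP and 1.62, 0.975 and 0.309 CPM under CK, where the libraries held 29, 15 and 5 reads. The lowest LP library was well above the highest CK library, and the CK libraries differed more among themselves than the LP libraries did on a log scale. The mean was 6.73 ± 0.755 CPM under LP and 0.969 ± 0.657 CPM under CK (SD, n = 3), with a log2 fold change of 2.78 (2.35 to 3.42 with each library left out).

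A pair of HSP70 homologues carry the description of mediator subunit 37c-like, with heat shock 70 kDa protein 4 of Glycine as a further match. Mediator is the complex that links transcription factors to RNA polymerase II, and in Arabidopsis the subunit 37 names were given to HSP70 proteins. The first of the pair, Cluster-8255.69596, had 3.93, 6.20 and 7 CPM under LP (84, 128 and 142 reads) and no read in any CK library. It was detected only under LP, and against the floor of 3 reads over the CK group it was at least 93.6-fold higher.

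The second of the pair, Cluster-8255.66276, had 2.01, 0 and 0 CPM under LP and 13.6, 12.2 and 14.8 CPM under CK. All of its 43 LP reads lay in replicate 1, while each CK library held at least 187. The groups did not overlap, and the mean was 20.1-fold lower under LP (log2 fold change -4.30), yet it was the homologue that was not called. Its pooled SD of log2 CPM was 1.76, larger than that of 94.8% of tested unigenes. Cluster-8255.66276 was also not called with RLE or upper-quartile factors, no filter, DESeq2, a replicate block or any library other than LP replicate 1 left out. Without LP replicate 1 it was called and at least 184-fold lower under LP. It was also called with library sizes in place of TMM (log2 fold change -4.31), with a filter of 1 CPM in 3 libraries (-4.28), and with limma on log2(FPKM + 1) (-3.13 on that scale) and log2(FPKM + 0.1) (-5.43).

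The pair thus ran in opposite directions. Summed, Cluster-8255.69596 and Cluster-8255.66276 reached 5.95, 6.20 and 7 CPM under LP and 13.6, 12.2 and 14.8 CPM under CK. The CK sum was 2.11 times the LP sum (means 13.5 ± 1.31 and 6.38 ± 0.548 CPM, SD, n = 3), without overlap. A sum of unigenes that run in opposite directions must have a ratio between theirs, so nothing is read from its size. RSEM divides reads that fit several unigenes among them, and the sequences needed to see how much the pair share were not used here.

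With the 2 further unigenes of the same description, Cluster-8255.34219 and Cluster-8255.111969, the sum of the 4 was 8.05, 9.21 and 10.1 CPM under LP and 13.7, 12.3 and 14.9 CPM under CK. The LP to CK ratio of this sum was 0.669. The groups still did not overlap, although 3 of the 4 unigenes had their higher levels under LP. Only the study's tables were searched for shared descriptions. They hold unigenes called on this contrast and were seen in part, so the sum need not cover every unigene of this description. Cluster-8255.34219, an HSP70 like the pair, had 1.22, 2.18 and 2.71 CPM under LP and 0.112, 0.130 and 0.124 CPM under CK. Cluster-8255.111969 had 19, 17 and 7 reads under LP and none under CK, too few to be tested.

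Unlike the 37c-like pair, the isoforms of the 16-like HSP70 ran the same way. Cluster-8255.92908, described as isoform X2, had 2.2, 3.68 and 4.43 CPM under LP and 0.224, 0.390 and 0.618 CPM under CK. Together with Cluster-8255.92909 the sum was 8.66, 9.84 and 12 CPM under LP and 1.85, 1.37 and 0.927 CPM under CK, 7.37 times higher under LP.

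Outside the heat shock list, 2 further pairs of J-protein homologues shared a description, and both pairs were chosen after their values were seen. They come from 8 unigenes of the study's tables, outside the list, with DnaJ or 37c in a description or match. Those tables hold unigenes that the study had called on this contrast and were seen in part. Of the 8, 6 had no CK read, and nothing is read from that count. Another, Cluster-8255.32609, had no LP read and 6, 14 and 17 reads under CK. The unigenes of the first pair ran the same way. Their shared description is an uncharacterized protein of Glycine max, with a chaperone protein DnaJ of Glycine soja as a further match. Cluster-8255.22624 had 2.81, 2.52 and 4.29 CPM and Cluster-8255.106076 had 3.46, 2.08 and 2.56 CPM under LP, and neither had a read under CK. The unigenes of the second pair ran in opposite directions, like the 37c-like pair. Both are matched to the soybean J-protein C17-like. Cluster-8255.56171 had 5.29, 12.1 and 7.69 CPM under LP and no read under CK, while Cluster-8255.63727 had 10.9, 7.17 and 13.2 CPM under LP and 22.6, 21.4 and 27.4 CPM under CK. Their sum was 16.2, 19.2 and 20.8 CPM under LP and 22.6, 21.4 and 27.4 CPM under CK, without overlap. The call of Cluster-8255.63727 was not kept without LP replicate 2 (log2 fold change -0.98) or CK replicate 3 (-1.09).

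**Figure D2:**
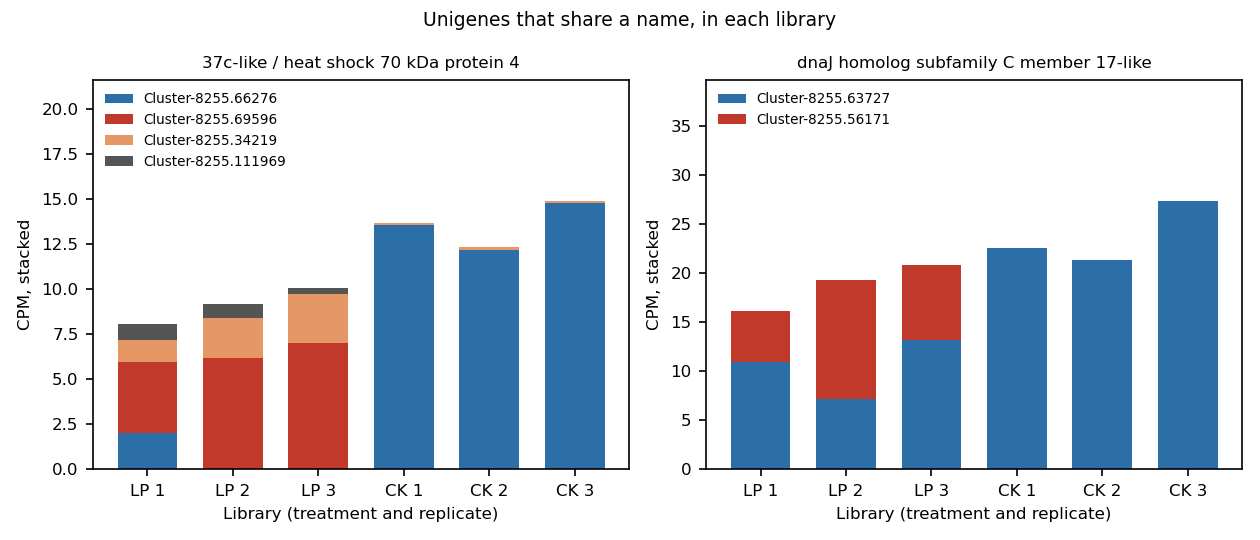
CPM by library of unigenes sharing a description in the study's tables, stacked so that bar height is their sum, linear axes from 0. The left panel shows the 4 unigenes of the 37c-like description and the right panel the pair of dnaJ C17-like unigenes. In both panels the unigene drawn in blue makes up nearly all of the CK bars, and a unigene drawn in red appears only in the LP bars.

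Cluster-8255.65169 matched a 70 kDa heat shock protein of caper (Capparis spinosa). It had 4.73, 5.43 and 8.33 CPM under LP and 13.6, 12.2 and 13.4 CPM under CK. The CK libraries were close together, and LP replicate 3 was the LP library nearest to them. The mean was 6.16 ± 1.91 CPM under LP and 13.0 ± 0.766 CPM under CK (SD, n = 3), a 2.12-fold lower level under LP (log2 fold change -1.08). The call was not kept without LP replicate 1 (-0.91), LP replicate 2 (-0.99), CK replicate 1 (-1.02), CK replicate 2 (-1.13) or CK replicate 3 (-1.07), nor with limma on log2(FPKM + 1) (-0.97 on that scale) or on log2(FPKM + 0.1) (-0.98).

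Cluster-8255.106909 was the fifth HSP70 homologue. Its first match was to HSP70 of Guillardia theta, a cryptophyte alga, and its other matches were to barley and to a cognate HSP70 of the hornworm Manduca sexta. It had no read in any LP library and 1.23, 1.82 and 0.989 CPM in the CK libraries (22, 28 and 16 reads). It was detected only under CK, and with the floor of 3 reads over the LP group it was at least 27.7-fold lower under LP. With limma on log2(FPKM + 1) it was not called (-0.95 on that scale), and the filter of 1 CPM in 3 libraries left it untested.

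Since that match is to an alga, the other unigenes of the study's tables whose first match is to an alga or an oomycete were summed. The tables hold unigenes that the study had called and were seen in part, so the list was chosen on the same contrast. Without Cluster-8255.106909 it held 22 unigenes, whose summed level was 6.51, 7.27 and 10.1 CPM under LP and 8.90, 19.9 and 10.6 CPM under CK. CK replicate 2 was highest for this sum and for Cluster-8255.106909, whereas for the sum LP and CK libraries overlapped. The 14 algal unigenes alone, again without Cluster-8255.106909, summed to 3.28, 4.65 and 6.16 CPM under LP and 6.55, 13.3 and 6.43 CPM under CK, without overlap and in the direction of Cluster-8255.106909. The 8 oomycete unigenes summed to 3.23, 2.62 and 3.99 CPM under LP and 2.35, 6.63 and 4.14 CPM under CK, with overlap. Of the 22, 15 had no read in any LP library and 1 had none in any CK library. Of the 10 tested among the 22, 6 were called higher under LP and 4 lower. Most of those left untested had no LP read and too few CK reads for the filter. The calls thus leave out most of the 15. The part of other organisms in the level of Cluster-8255.106909 was not tested.

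**Figure D3:**
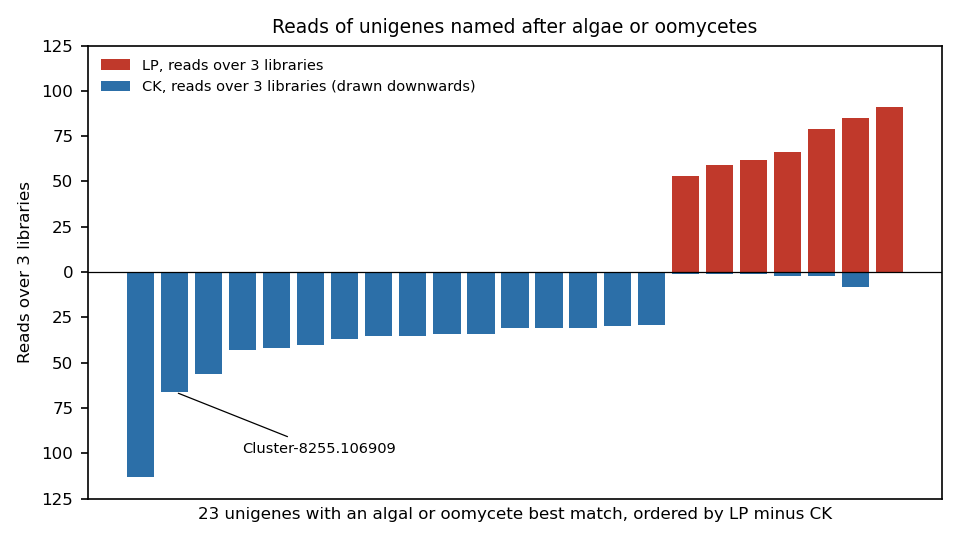
Reads summed over the 3 libraries of a group for the 23 unigenes whose first match is to an alga or an oomycete, ordered by LP minus CK, with LP drawn upwards in red and CK downwards in blue on a linear axis. Cluster-8255.106909, with 66 CK reads, is among 16 unigenes with no LP read.

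Both HSP90 homologues were lower under LP. Cluster-8255.66995, matched to an HSP83 isoform of Populus euphratica, had 1.22, 4.70 and 2.66 CPM under LP and 14.8, 13.1 and 17.6 CPM under CK. The highest LP library was far below the lowest CK library, and the LP libraries spread over a wider ratio than the CK libraries. The mean was 2.86 ± 1.75 CPM under LP and 15.2 ± 2.26 CPM under CK (SD, n = 3), a 5.31-fold lower level under LP with a log2 fold change of -2.41 (-2.96 to -2.03 with each library left out).

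The other, Cluster-8255.56180, matched heat shock cognate protein 80 of Glycine soja, and it had the most reads of the 8. It had 42.7, 58.2 and 31.6 CPM under LP and 102, 80.9 and 96.3 CPM under CK. The groups did not overlap, with LP replicate 2 and CK replicate 2 nearest to each other. The mean was 44.1 ± 13.4 CPM under LP and 93.0 ± 10.8 CPM under CK (SD, n = 3), 2.11-fold lower under LP with a log2 fold change of -1.07. The call was not kept without LP replicate 1 (-1.04), LP replicate 3 (-0.88), CK replicate 1 (-0.97) or CK replicate 3 (-1.06).

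In FPKM, which allows unigenes to be compared, Cluster-8255.65169 (562 to 698 FPKM) and Cluster-8255.56180 (405 to 525 FPKM) led under CK. They were followed by Cluster-8255.66276 (9.94 to 12.2 FPKM), Cluster-8255.66995 (5.19 to 7.04 FPKM), Cluster-8255.106909 (0.71 to 1.24 FPKM) and Cluster-8255.92909 (0.11 to 0.58 FPKM), with Cluster-8255.69596 and Cluster-8255.88810 at 0. No neighbours in this order overlapped. Under LP, Cluster-8255.65169 (275 to 436 FPKM) and Cluster-8255.56180 (157 to 306 FPKM) overlapped at the top. Below them Cluster-8255.88810 (13.5 to 16.5 FPKM), Cluster-8255.69596 (3.17 to 5.56 FPKM) and Cluster-8255.92909 (2.2 to 2.60 FPKM) did not overlap, Cluster-8255.66995 (0.48 to 1.89 FPKM) overlapped with Cluster-8255.66276 (0 to 1.66 FPKM), and Cluster-8255.106909 was at 0.

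The 2 leading FPKM values rest on very short effective lengths. The effective length, the number of positions at which a sequenced fragment can start, was computed from the deposited counts, FPKM values and library totals. It was 18.8 for Cluster-8255.65169 and 192 for Cluster-8255.56180, against 1201 to 2805 for the other 6 and a median of 1396 over tested unigenes. Only 0.129% of tested unigenes were shorter than Cluster-8255.65169, and 3.69% were shorter than Cluster-8255.56180. Per length, Cluster-8255.65169 exceeded 99.8% of tested unigenes at a mean of 494 FPKM, but in CPM it exceeded 73.4% at 9.60. For Cluster-8255.56180 the 2 shares were closer, 99.6% in FPKM and 95.5% in CPM. The FPKM rank of Cluster-8255.65169 in particular depends on its length estimate, which varied from 16.9 to 21.3 among libraries.

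**Figure D4:**
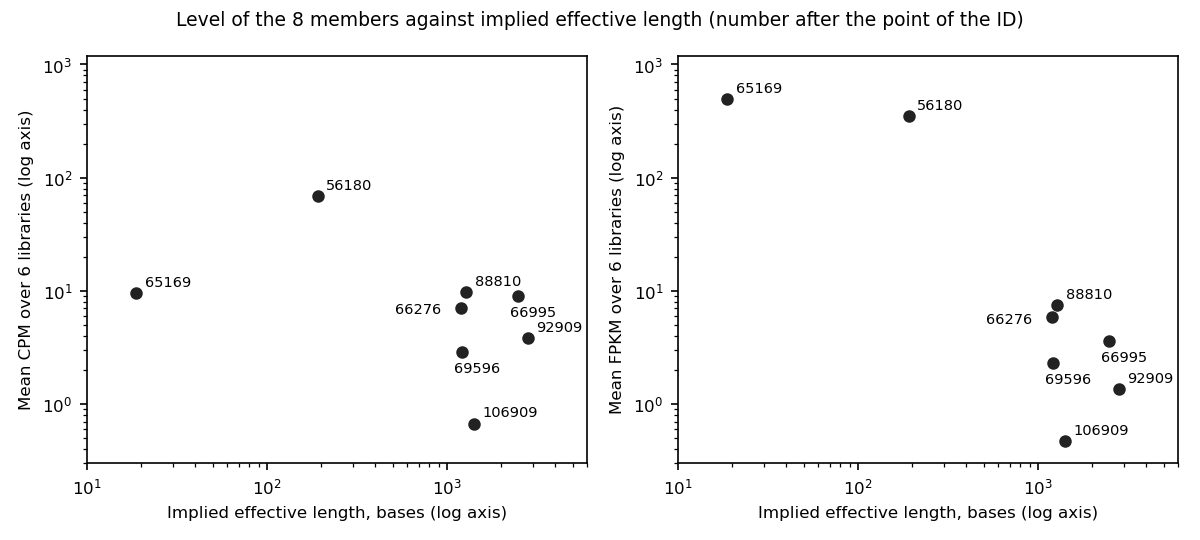
Mean level over the 6 libraries against implied effective length for the 8 homologues, in CPM (left) and FPKM (right), all axes logarithmic. In FPKM the 2 shortest unigenes, Cluster-8255.65169 and Cluster-8255.56180, lie far above the other 6, whereas in CPM Cluster-8255.65169 (9.60) lies near the rest.

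Counts of Cluster-8255.65169 and Cluster-8255.56180 were whole in all 6 libraries, while the other 6 had fractional counts. Fractional counts arise where RSEM divides reads, and reads shared with other unigenes enter the values of the 37c-like pair, Cluster-8255.92909, Cluster-8255.66995, Cluster-8255.106909 and Cluster-8255.88810 to an extent that was not tested.

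The study's table of transcription factors and regulators assigns 25 of its 282 unigenes to a heat shock family labelled HSF, and it holds all 8 homologues. By description only 5 of the 25 are heat stress transcription factors, and the rest are chaperones or related proteins. The table too was drawn from unigenes called on this contrast. Of the 25, 23 were tested, 12 were called higher under LP and 9 lower, with a median log2 fold change of 1.40. Over all tested unigenes, 6.09% were called higher and 7.10% lower. LP and CK libraries did not overlap for any of the 23, against 42.4% of all tested unigenes. As the same contrast chose the list, nothing is read from these counts, in total or by class. The 2 unigenes of no single class were called lower. With each library left out, Cluster-8255.32806 (log2 fold change -1.76 in the full fit) kept its call only without LP replicate 3. Cluster-8255.65998, a putative heat shock protein 4, had 0.609, 0.678 and 0.394 CPM under LP and 18.7, 25 and 25.1 CPM under CK. Leaving out 1 library at a time, 15 (without CK replicate 1) to 20 of the 25 were called. Without the 8 homologues, 9 were called higher and 5 lower of 15 tested, with a median of 1.42.

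By class, HSP70 unigenes were called in both directions, with 5 higher and 4 lower of 10 tested. The most abundant outside the 8, Cluster-8255.21074, a cognate HSP70 matched to Populus, had 8.52, 8 and 5.27 CPM under LP and 1.74, 2.67 and 2.22 CPM under CK. Both HSP90 unigenes, which are the 2 described above, were called lower. Of the small heat shock proteins on the list, 3 of 3 tested were called higher. The most abundant, Cluster-8255.48808, had 16, 30.2 and 19.1 CPM under LP and 5.88, 7.22 and 7.54 CPM under CK. Cluster-8255.22640 had 5.53, 9.16 and 11.3 CPM under LP and 2.02, 2.67 and 2.29 CPM under CK. In both, all LP libraries exceeded all CK libraries. The third, Cluster-8255.21992, had 47, 51 and 25 reads under LP and 0, 0 and 3 under CK, and its call was not kept without LP replicate 1 (log2 fold change 4.78), LP replicate 2 (4.67), CK replicate 1 (4.32) or CK replicate 2 (4.35).

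Of the 5 heat stress transcription factors, 3 were called higher and 1 lower. The A3 homologue Cluster-8255.106897 had 16.7, 9.88 and 15.9 CPM under LP and 5.94, 3.84 and 6.12 CPM under CK. The HSF24 homologue Cluster-8255.79882 had 17.2, 16.7 and 23.5 CPM under LP and 8.73, 9.36 and 6.12 CPM under CK, and the A-6b homologue Cluster-8255.35580 had 4.96, 6.69 and 4.43 CPM under LP and 1.68, 1.69 and 2.72 CPM under CK. In these 3, every LP library was above every CK library. The call was not kept without LP replicate 1 for Cluster-8255.106897 (log2 fold change 1.29), nor without LP replicate 1 (1.46), LP replicate 2 (1.22), CK replicate 1 (1.31) or CK replicate 2 (1.28) for Cluster-8255.35580. The A-2 homologue Cluster-8255.106901, related to the factor that sustains the heat response in Arabidopsis, was not called, with 6.41, 3.39 and 5.27 CPM under LP against 0.784, 2.80 and 1.05 CPM under CK. Without CK replicate 2, its highest CK library, it was called (log2 fold change 2.44). The A-1b homologue Cluster-8255.28547 had no LP read and 12, 9 and 10 CK reads, at least 13.0-fold lower under LP, and it was not called with any CK library left out.

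**Figure D5:**
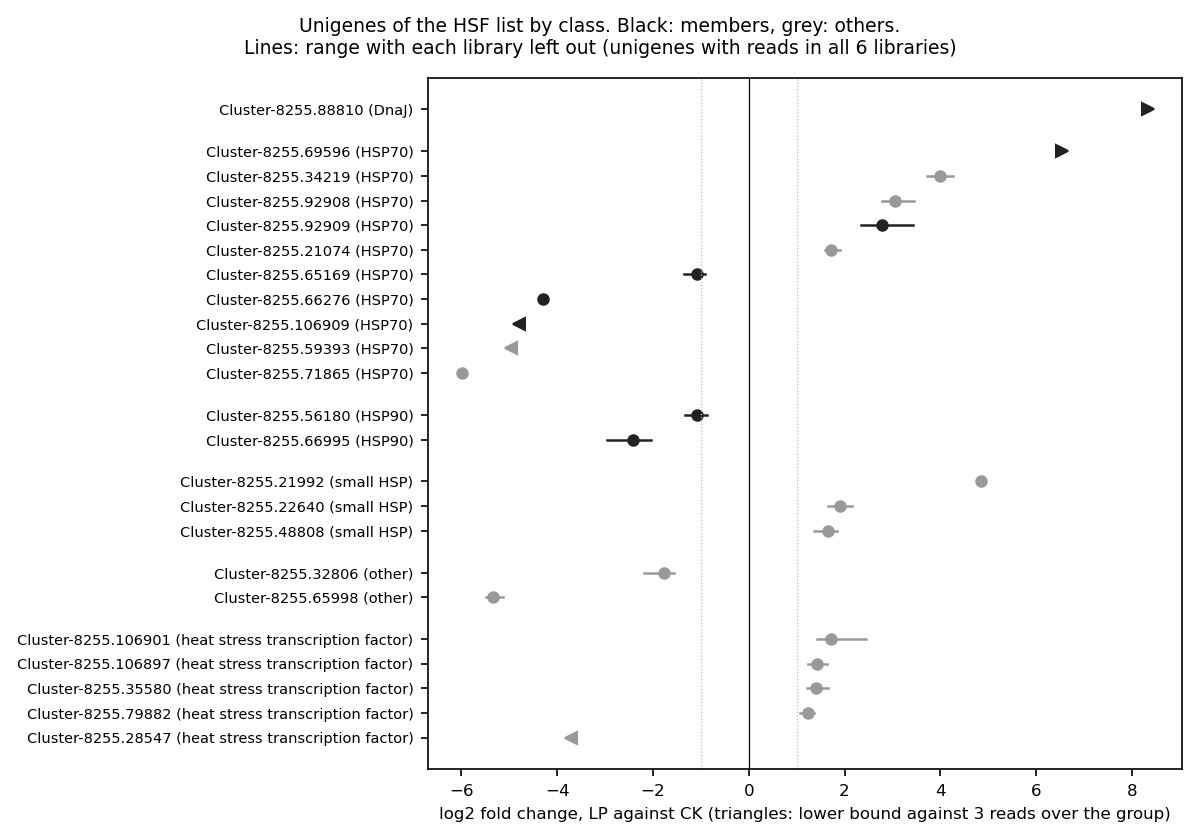
Log2 fold change of LP against CK for the 23 tested unigenes of the heat shock list, itself chosen on this contrast. They are drawn by class, with the 8 homologues in black and the rest in grey. Triangles are bounds against 3 reads over the group at 0, lines span the values with each library left out for unigenes with reads in all 6 libraries, and the HSP70 class lies on both sides of 0 while both HSP90 unigenes lie below it and all 3 small heat shock proteins above it.

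Counts were also split by the organism of the first match. Of the 18 unigenes of the list matched first to a legume, 17 were tested, 11 called higher and 4 lower. Of the 7 with another first match, 6 were tested, 1 called higher and 5 lower. Among the 8 homologues, the 3 matched to caper, Populus or the alga were all called lower, and the 5 matched to legumes were split into 3 higher, 1 lower and 1 not called. First matches to other land plants were rare elsewhere in the table, at 14 of the 257 unigenes of the other families. There, 13 of these 14 were tested, 3 called higher and 7 lower. Of the 234 with a legume match, 225 were tested, 85 called higher and 115 lower. Over all tested unigenes, 6.09% were called higher and 7.10% lower. These are counts of a list chosen on the contrast, and no test was made.

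Among the non-legume matches outside the 8, Cluster-8255.71865, an HSP70 matched to Populus, had 0.375, 0 and 0 CPM under LP and 11.1, 9.56 and 4.76 CPM under CK. Its few LP reads lay in replicate 1, as did those of Cluster-8255.66276. Its centred log2 CPM profile was the nearest to that of Cluster-8255.66276 among 1521 tested unigenes of the study's tables. The root mean square difference over the 6 libraries was 0.83, and a nitrate transporter was about as near (0.84). Both lay farther off than the nearest profiles of the other homologues (0.04 to 0.23).

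For the other homologues the nearest profiles belonged to unigenes with other descriptions. They were a NAC100 homologue for Cluster-8255.65169 (difference 0.08), a TCP9 homologue for Cluster-8255.56180 (0.15), an AINTEGUMENTA-like AP2 factor for Cluster-8255.92909 (0.18) and an ABC transporter C14-like unigene for Cluster-8255.66995 (0.23). For Cluster-8255.88810 it was a granule-bound starch synthase (0.17), for Cluster-8255.106909 a THO complex subunit 5 homologue (0.04) and for Cluster-8255.69596 an uncharacterized protein (0.04). The second nearest were a CCCH zinc finger 43 homologue for Cluster-8255.65169 (0.10), a MAGPIE-like factor for Cluster-8255.56180 (0.16), an ABC transporter B11-like unigene for Cluster-8255.92909 (0.32) and an HKT1 homologue for Cluster-8255.66995 (0.30). For Cluster-8255.88810 it was a lectin (0.25), for Cluster-8255.66276 a nitrate transporter (0.84), for Cluster-8255.69596 a purple acid phosphatase 2-like unigene (0.10) and for Cluster-8255.106909 a unigene with no name (0.14). All profiles share the same 6 libraries and the same treatment difference, and where a group is at 0 they share that too.

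In the study's network text 7 of the homologues were linked to an ATPase subunit 1 homologue, Cluster-8255.74336. It had 4.87, 3.54 and 4.19 CPM under LP and 16, 14.5 and 23 CPM under CK, 4.24-fold lower under LP. Its direction was that of 5 of the 8 homologues and opposite to that of Cluster-8255.92909 and Cluster-8255.69596, which were linked to it as well. The J-protein Cluster-8255.88810 was linked to a pair of ROOT HAIR DEFECTIVE 3 homologues, which in Arabidopsis shape the endoplasmic reticulum of growing root hairs.

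These ran opposite to the J-protein. Cluster-8255.68495 had 48.7, 44.4 and 42.7 CPM under LP and 121, 102 and 117 CPM under CK, 2.51-fold lower. Cluster-8255.28286 had 0.609, 1.16 and 0.739 CPM under LP and 4.59, 2.73 and 5.31 CPM under CK, 5.03-fold lower. In both, no LP library reached the lowest CK library. The links come from the study's network and were not examined here.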

How the data were processed

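RNA was sequenced from 6 root libraries, 3 LP and 3 CK. According to the methods, the authors assembled the reads of all samples with Trinity and quantified unigenes with RSEM. The submitters' processing notes also name Bowtie2 2.2.3. The authors deposited estimated counts, which are not normalized and not always whole because RSEM divides reads that fit several unigenes, and FPKM values scaled for length and depth. Whether counting used strand is not stated in those sources, so antisense, overlapping and near-identical transcripts are uncertain.

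Counts were rounded, filtered with filterByExpr (minimum count 10), scaled by TMM (edgeR 4.0.16, limma 3.58.1, R 4.3.3) and tested for LP against CK with the quasi-likelihood test. Over all tested unigenes p-values were adjusted by Benjamini-Hochberg, and calls were made at an adjusted p of 0.05 and an absolute log2 fold change of 1. The script was tested on simulated data. Where a group was at 0, a fold change was computed against 3 reads over the group, which covers counting error only. Profiles used log2 CPM with a prior count of 2. Libraries of a group came from separate boxes of the same experiment, so p-values measure the spread between boxes. Correlations of deviations between LP and CK libraries were -0.0057 to 0.0487 for the same replicate number and -0.0634 to 0.0257 for different numbers. All were small, but 3 libraries per group cannot exclude a pairing by replicate number.

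Alternatives were RLE and upper-quartile factors, library sizes alone, no filter and a filter of 1 CPM in 3 libraries, DESeq2 1.42.0, limma on log2(FPKM + 1) and log2(FPKM + 0.1), a replicate block, and leaving out each library. The homologues, the lists and the rule for named unigenes were chosen with earlier results of these data known. Named are the 8 homologues, the rest of the heat shock list by class with values for HSFs, the most abundant of a class and shared descriptions, the 3 network partners and the 2 nearest profiles of each. The rule asked for unigenes with a description, but the search took all tested unigenes of the study's tables, some of which have none. The 2 pairs of J-proteins outside the list were added after their values were seen. Descriptions were read from the study's supplementary tables, of which no value was used.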

Additional observations from a re-analysis of the deposited data

How the results depend on the processing

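Over 15 alternatives no homologue changed direction, and 5 to 8 of the 8 were called, with 5 to 6 when each library was left out. Of the values of single homologues, 100 kept their side of the threshold, 14 lost the call (Cluster-8255.56180, Cluster-8255.65169 and Cluster-8255.106909) and 5 gained it (Cluster-8255.66276). Leaving out each library gave 5586 (without CK replicate 3) to 8183 (without LP replicate 3) called unigenes and 15 to 20 of the heat shock list. With the replicate number as a block, although the numbers showed no clear pairing, 5167 unigenes and 13 of the heat shock list were called. In that fit Cluster-8255.56180 (-1.11) and Cluster-8255.106909 lost the call. The calls of Cluster-8255.56180 and Cluster-8255.65169 lie close to the fold threshold. In several fits both passed that threshold and lost the call on adjusted p, as with -1.04 and -1.13. The calls of Cluster-8255.106909 and Cluster-8255.92909 rest on few reads in 1 group.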
